A study of Homo sapiens with 78 samples.

Results

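Of the 42 wells of A375 cells, a human melanoma line, 5 stood apart by the share of their estimated counts that was assigned to nuclear copies of mitochondrial genes. The wells were selected on that measured share. A375 wells of both library kits were kept where they held at least 50000 estimated counts in all, which left 36 wells, and a kept well was called copy-high where at least 10% of its counts lay on the copies. The 5 copy-high wells were wells 8, 11, 13 and 15 of kit #634413 and well 1 of kit #634444, and the other 31 kept wells comprised 15 of kit #634413 and 16 of kit #634444. The remaining 6 A375 wells held between 909 and 2373 counts and entered no comparison, and the whole series comprised 78 wells.

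Single cells were sorted into the wells, and the RNA of a well was read as a total RNA library, primed at random, without selection of polyadenylated RNA. Kit #634413 is a SMARTer stranded kit for picogram inputs, and kit #634444 is the SMART-Seq stranded kit. The A375 cells were stained for CD47 and with 7-AAD, a dye that enters cells with a broken membrane, and were sorted into PBS, so that both sets share the line, the stain and the buffer. The labels name no treatment or separate cultures and do not mark wells as damaged or intact, the deposited values contain no measurement of viability, and the line is a single cell line that stands for no other melanoma. The 36 Jurkat wells, a T cell leukemia line, were all under the 10% limit. Per the paper, the Jurkat cells were stained for CD81 and sorted into a lysis solution. Line, antibody and sorting buffer thus cannot be told apart where Jurkat wells are set beside A375 wells.

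Mitochondria carry a small circular genome that encodes core subunits of the oxidative phosphorylation complexes together with rRNAs and tRNAs, and its transcripts are polyadenylated and kept inside the organelle. The nuclear genome holds many pasted copies of that sequence, which are annotated as pseudogenes and named after the gene they derive from. None of the 200471 targets of the quantification was a transcript of the mitochondrial chromosome, whereas 404 of them were such copies by their GENCODE v44 names. Nuclear mRNAs are made in the nucleus and translated in the cytoplasm, whereas rRNA precursors, snoRNAs and spliceosomal snRNAs act or mature largely in the nucleus. In single-cell work a high share of mitochondrial reads is commonly used as a filter for damaged cells.

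MTCO1P12 and MTND2P28 are the copies that mark these wells, and a stretch of MTND2P28 is shown beside its mitochondrial gene, because the likeness of the letters is what a read from either source has to be assigned by. MTCO1P12 (ENSG00000237973, chr1:631074-632616, plus strand, hg38) shared 98.6% of 1543 aligned columns with MT-CO1, which encodes subunit 1 of cytochrome c oxidase. MTND2P28 (ENSG00000225630, chr1:629640-630683, plus strand) shared 98.4% of 1042 columns with MT-ND2, a subunit of complex I. The lines below give, 5′ to 3′, the 150-base stretch of the MTND2P28 pair that held the most differences without a gap, from the GENCODE v44 transcripts, with the 6 differing bases in capitals. In MTND2P28 the stretch is chr1:630012-630161.
MTND2P28: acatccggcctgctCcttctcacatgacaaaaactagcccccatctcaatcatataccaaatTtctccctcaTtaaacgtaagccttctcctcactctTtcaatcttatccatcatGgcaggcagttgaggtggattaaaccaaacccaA
MT-ND2: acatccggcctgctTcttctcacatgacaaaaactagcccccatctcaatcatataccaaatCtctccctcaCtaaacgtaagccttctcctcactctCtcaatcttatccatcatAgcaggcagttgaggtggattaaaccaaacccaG

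The copies took 34.1% of all counts in well 8 of kit #634413, 27.2% in well 11, 25.5% in well 13, 16.1% in well 15 and 33.5% in well 1 of kit #634444. In the other wells the share ranged from 2.12% to 9.62% with a median of 3.43%, and in the Jurkat wells from 1.36% to 3.12%. These shares chose the sets and are given as a description. Well 15 of kit #634413 was the copy-high well nearest the limit, with a Wilson 95% interval of 15.9% to 16.2%. The nearest wells below the limit were wells 5, 15 and 10 of kit #634444, at 9.62%, 7.30% and 6.70%. Such intervals cover counting error only, since PCR reads are not independent molecules. MTCO1P12 alone took 7.01%, 6.19%, 4.80% and 3.55% of all counts in wells 8, 11, 13 and 15 and 6.83% in well 1 of kit #634444, against 0.46% to 2.05% in the other wells. MTND2P28 took between 1.69% and 4.39%, against 0.25% to 1.08%.

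In number, the copy counts of the copy-high wells were not unusual, and their totals were low. They held 79014, 75741, 39172, 25164 and 27111 copy counts in the same order of wells, within the 13373 to 79882 of the other wells, whose median was 30064. Totals over all targets ran from 80958 to 278553 in the copy-high wells and from 327162 to 2567265 in the others, so the ranges did not overlap. Coding counts were 11217, 29255, 10602, 31670 and 4851, against 222613 to 1921840, a 42.1-fold difference of the means. The number of reads sequenced from each well is not among the values used here, so counts per well were not read as amounts of RNA.

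**Figure D1:**
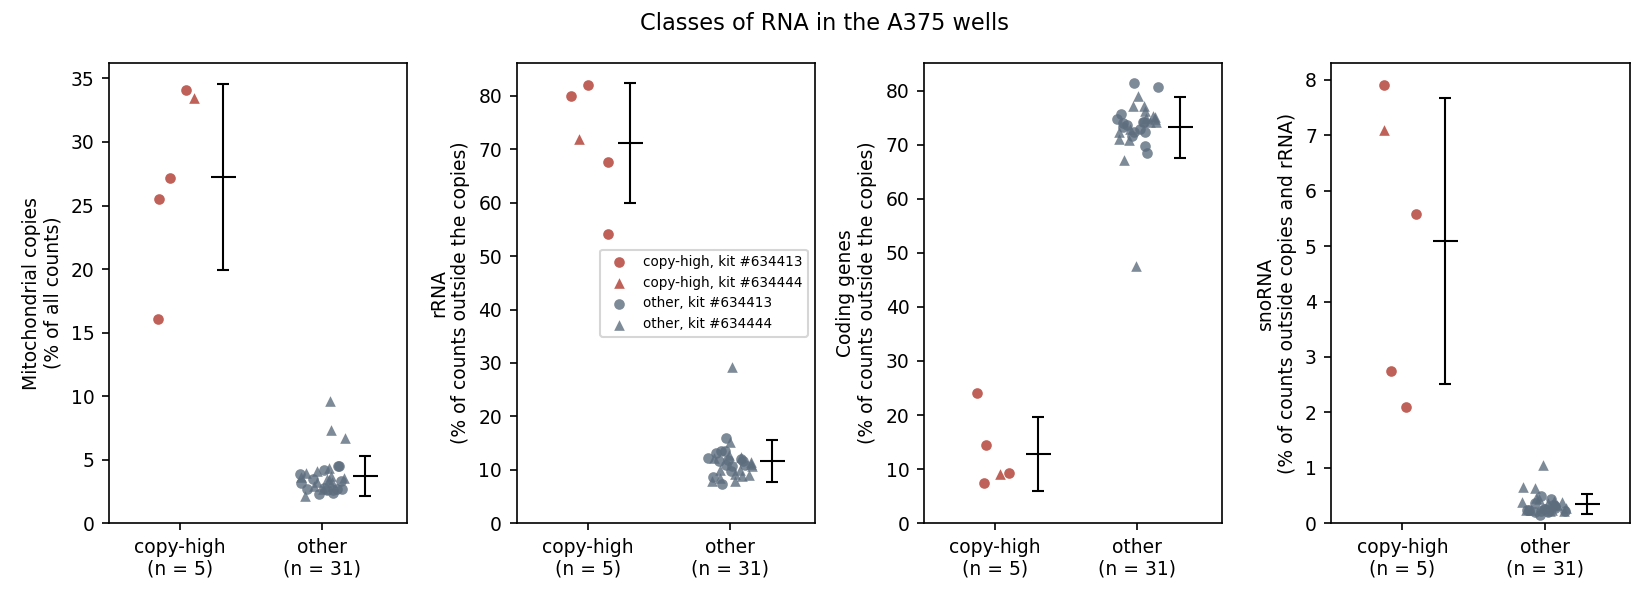
Shares of 4 classes of RNA in each A375 well, by set of wells (circles, kit #634413; triangles, kit #634444), in percent of the counts named on each vertical axis, with the mean ± SD of each set beside the points. The first panel shows the share that chose the sets. In the next 2 panels rRNA sits between 54.1% and 82.1% and coding genes between 7.35% and 24.1% in the copy-high wells, apart from all other wells. In the last panel all 5 copy-high wells lie above 2%, and the highest other well is at 1.04%.

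The makeup of the copy counts was nearly the same in both sets. The 12 copies with at least 1% of the copy counts held 95.3% ± 0.65 (SD, n = 5) of them in the copy-high wells and 95.2% ± 0.37 (SD, n = 31) in the others, and for none of the 12 did the ranges separate. MTCO1P12 led with 20.9% ± 1.54 against 22.1% ± 2.14. It was followed by MTND4P12 (chromosome 5, minus strand) with 14.6% ± 0.99 against 13.6% ± 1.05, by MTATP6P1, a copy of the gene for subunit 6 of ATP synthase, with 12.96% ± 2.37 against 11.7% ± 1.65, and by MTND2P28 with 12.3% ± 1.12 against 11.8% ± 1.90. MTCO2P12 held 10.9% against 11.3%, MTND5P11 7.63% against 8.47%, MTCO3P12 7.21% against 7.26%, MTND1P23 3.71% against 3.61% and MTCYBP18, from the cytochrome b gene, 1.80% against 1.77%. MTND5P10, MTND4LP30 and MTND4P35 held between 1.07% and 1.34% each in either set. In 9 of the 12 every copy-high well lay inside the range of the other wells. MTCO1P12 was at 15.9% in the Jurkat wells, below its mean in either A375 set.

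**Figure D2:**
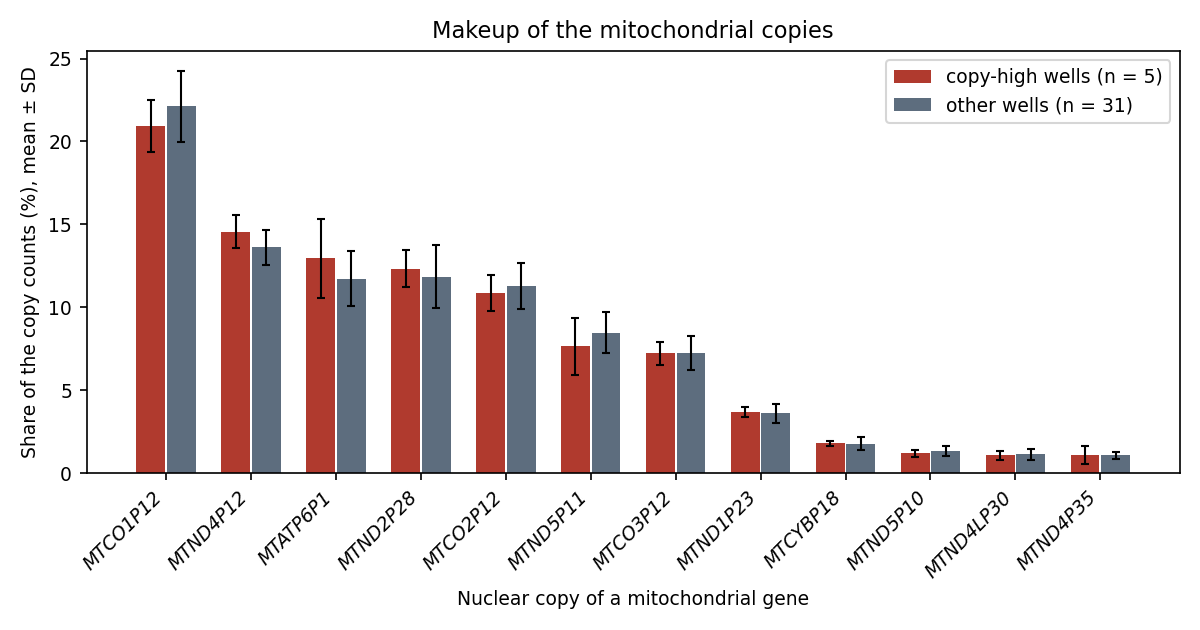
Share of the copy counts, in percent, held by each of the 12 leading nuclear copies, as mean (bar) ± SD (error bar) over the 5 copy-high and the 31 other wells. For every copy the bars of the sets lie within 1.5 percentage points of each other, led by MTCO1P12 at 20.9% and 22.1%.

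These copies lie close together. Of the 12, 6 (MTND1P23, MTND2P28, MTCO1P12, MTCO2P12, MTATP6P1 and MTCO3P12) sit in the order of the mitochondrial genome on chromosome 1 between positions 629062 and 634922 (hg38) and held 68.0% ± 1.73 of the copy counts in the copy-high wells and 67.8% ± 1.55 in the others. The other 6 lie on chromosome 5 and held 27.4% ± 1.59 and 27.4% ± 1.597. Identity to the mitochondrial gene was between 98.0% and 99.1% for the copies on chromosome 1, and from 87.7% for MTND5P10 to 95.8% for MTND4P12 on chromosome 5. No target with a GENCODE v44 name was a copy of a mitochondrial rRNA or tRNA gene, so the share covers named messenger-type copies alone. The 4356 targets without a name could not be searched for such copies.

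Outside the copies, most counts of the copy-high wells were assigned to rRNA targets. To keep the selecting share out of the denominator, classes were taken in percent of the counts outside the copies. rRNA, the sum of the ribosomal repeat unit of 42999 bases, which holds 18S, 5.8S and 28S rRNA and the spacers, and of the rRNA genes, took 82.1%, 67.7%, 80.1% and 54.1% in wells 8, 11, 13 and 15 and 72.0% in well 1 of kit #634444. The mean was 71.2% ± 11.2 (SD, n = 5) against 11.6% ± 3.90 (SD, n = 31), with a range of 7.28% to 29.3% in the other wells. The sets did not overlap, and within kit #634413 the means were 71.0% and 11.6%. Nearly all of it lay on the repeat unit, whereas the separate rRNA genes held 1.08% ± 0.057 against 0.989% ± 0.493. Since the values are counts, the long repeat unit collects many, but its length is the same in every well. Its counts per coding count were 6.85 ± 3.46 in the copy-high wells and 0.151 ± 0.0832 in the others, without overlap. On the TPM scale, which divides by length, rRNA took 20.4% against 18.9%. The size of the difference in the rRNA share thus depends on the scale. Which rRNA targets make up the TPM share was not tested. The paper reported much lower rRNA shares for the A375 cells with both kits. Those came from reads mapped with STAR, a different measure from the counts used here. No test was run for this or any later difference, since wells were sorted to hold single cells, no separate cultures are named and the sets were formed from a measured value. Differences are given with the spread over wells and the overlap of the sets.

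Protein coding genes made up 7.35%, 14.4%, 9.26%, 24.1% and 9.01% of the counts outside the copies, in the same order of wells. Their mean was 12.8% ± 6.83 against 73.2% ± 5.67, and the lowest other well, well 10 of kit #634444, was at 47.6%. With rRNA left out of the denominator too, coding genes still held 43.4% ± 7.49 against 82.7% ± 3.52, without overlap (32.2% to 52.5% against 67.3% to 88.2%). On TPM outside the copies the shares were 7.12% against 40.9%.

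The order of the copy-high wells was only in part the same for these classes. Well 15 of kit #634413 had the lowest copy share, the lowest rRNA share and the highest coding share of the 5, and well 8 had the highest copy and rRNA shares and the lowest coding share. Between them the order differed, since well 13 came after well 11 by copies (25.5% and 27.2%) and before it by rRNA (80.1% and 67.7%), and in percent of all counts well 13 had the highest rRNA share, 59.6% against 54.1% in well 8. The copies did not move in a fixed ratio to rRNA, since copy counts per count on the repeat unit were 0.639, 0.561, 0.433, 0.361 and 0.711 against a mean of 0.384 ± 0.166 in the other wells, and 11 of those lay inside that range. Against coding counts the copies stood at 0.795 to 7.04 per coding count, against 0.0273 to 0.151.

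The 3 wells nearest below the limit did not resemble each other. Well 10 of kit #634444, with 6.70% copies, had the highest rRNA share of the other wells (29.3% outside the copies), the lowest coding share, and the highest shares of snoRNA (1.04% outside the copies and rRNA) and of retained-intron transcripts (14.8% of coding-gene counts), while ribosomal protein mRNAs took 3.41% of its coding counts. Well 5, with 9.62% copies, had 12.7% rRNA, 75.2% coding counts, 8.67% ribosomal protein mRNAs and 5.33% retained-intron transcripts. Well 15 of that kit lay between them, at 15.2% rRNA and 67.1% coding counts.

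Small nuclear and nucleolar RNAs took more of what remained. In percent of the counts outside the copies and rRNA, snoRNAs, which guide the modification and processing of rRNA, held 7.92%, 2.75%, 5.58%, 2.10% and 7.10% against 0.144% to 1.04%, a 14.8-fold difference of the means. Spliceosomal snRNAs held 2.08%, 5.95%, 2.34%, 4.52% and 1.87% against 0.135% to 1.24%, an 8.35-fold difference. Both classes lay above all other wells on this scale. In percent of the counts outside the copies alone snoRNAs were still apart (0.888% to 1.99% against 0.127% to 0.737%), and snRNAs overlapped (0.371% to 2.08% against 0.124% to 1.08%). Of 21 snoRNA genes tested, 17 were at least 2-fold higher by the rule set out below for coding genes, which was 81% of those tested, and 0 were lower, against 1.97% higher among coding genes. Nothing is read from this share, since snoRNAs that are low in the other wells could be tested only through their level in the copy-high wells.

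SNORA73B is printed because it had the highest mean level of the snoRNAs in the copy-high wells, and SNORD17 as a box C/D snoRNA of high level, below SNORA23 there. SNORA73B, also named U17b, takes part in the cleavage of the rRNA precursor, and SNORD17 is a long box C/D snoRNA. Single genes named in this and the next 2 paragraphs were chosen after their values were seen. SNORA73B (chr1:28508559-28508762, plus strand) is shown with the ACA box near its 3′ end in capitals, and SNORD17 (chr20:17962710-17962946, minus strand) with the C box TGATGA and the last CTGA, its D box, in capitals, both from the GENCODE v44 transcripts on hg38.
SNORA73B: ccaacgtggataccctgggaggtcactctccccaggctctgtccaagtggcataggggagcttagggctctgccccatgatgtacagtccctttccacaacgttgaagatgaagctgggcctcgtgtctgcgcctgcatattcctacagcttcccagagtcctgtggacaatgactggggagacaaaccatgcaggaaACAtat
SNORD17: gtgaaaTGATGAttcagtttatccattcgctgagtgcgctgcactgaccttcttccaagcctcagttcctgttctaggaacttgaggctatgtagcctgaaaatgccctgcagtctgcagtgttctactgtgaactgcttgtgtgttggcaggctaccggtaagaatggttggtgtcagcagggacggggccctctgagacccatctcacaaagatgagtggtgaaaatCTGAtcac

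Per 1000000 counts outside the copies and rRNA, SNORA73B stood at 28062, 4651, 14135, 2552 and 10416 in the 5 wells, against a highest value of 1393 elsewhere. SNORD17 stood at 7070, 2151, 3591, 1160 and 4047, against at most 895. SNORA23 ranged from 1243 to 5495 against 7.92 to 175, and SNORA81 from 724 to 6677 against 19.99 to 230. None of the 4 overlapped between the sets. Among the snRNAs, summed over the many near-identical genes of each, U2 was at 3678 to 6301 against at most 3237, U5 at 447 to 2587 against at most 230, and U4 at 464 to 2057 against at most 166. U1 overlapped, at 7032 to 53000 against 800 to 10114. How evenly these kits capture short RNAs was not measured, so these are levels of reads, not of molecules.

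The microRNA class was tiny and in the copy-high wells rested on 1 sequence. It held 0.647% ± 0.360 of the counts outside the copies and rRNA against 0.0241% ± 0.0132, and in the copy-high wells nearly all of it lay on MIR3648-1 and MIR3648-2, which share reads and held equal counts, at 967 to 5775 per 1000000 each against 5.15 to 339. The libraries were primed at random from total RNA, so these counts were not read as levels of a mature microRNA. Whether the reads came from a longer RNA that holds the sequence, such as an rRNA precursor, was not tested. The mature form, hsa-miR-3648 (RefSeq, GRCh38.p14, chr21:8987026-8987046), is shown with the seed, bases 2 to 8, in capitals.
hsa-miR-3648: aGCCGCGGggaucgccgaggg

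Long noncoding RNAs gave no single direction. In percent of counts outside the copies they held 1.22%, 6.60%, 2.11%, 10.1% and 2.21%, a mean of 4.44% ± 3.78 against 6.95% ± 2.11. Outside the copies and rRNA the order of the means turned, to 13.5% ± 7.14 against 7.90% ± 2.52, and the sets overlapped on both scales. MALAT1, a nuclear speckle RNA, stood at 12456, 95824, 35381, 79528 and 27863 per 1000000 counts outside the copies and rRNA against 2049 to 52753. NEAT1, which builds paraspeckles, stood at 1062 to 44750 against 245 to 21837. The 10 listed nuclear lncRNAs together took 1.43% to 13.1% against 0.249% to 6.95%. NORAD, a cytoplasmic RNA that binds Pumilio proteins, had counts in 1 of the 5 wells, where it was at 82.9, against 106 to 1452, and TUG1 had no count in any copy-high well against 49.1 to 251. Of 30 lncRNA genes tested 4 were at least 2-fold higher, or 13.3%, and 1, NORAD, was lower, against 1.97% and 12.1% among coding genes. Here too a gene low in the other wells could be tested only through the copy-high wells, and nothing is read from the share.

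Structural noncoding RNAs of the cytoplasm and nucleus were mixed. RN7SL2, the RNA of the signal recognition particle, was at 16450 to 78063 per 1000000 against 7134 to 38873. The 7SK RNA, which holds the elongation factor P-TEFb in the nucleus, was at 769 to 32978 against 4577 to 25687, with 3 copy-high wells below all other wells and 1 above all of them. Of the 15 listed entries for 7SK, 7SL, RMRP, RPPH1, Y and vault RNAs, 14 matched a named target. Together these 14 took 3.24%, 4.17%, 4.98%, 2.11% and 8.12% against 0.75% to 4.02%. Transcripts that GENCODE v44 no longer holds took 25.7% ± 11.4 of the counts outside the copies and rRNA against 4.96% ± 0.91, so that part of the remainder has no named gene here. Among them, ENST00000602361 alone took 3.42% to 17.4% against 0.17% to 1.10%, and ENST00000600213 took 2.06% to 8.85% against 0.10% to 0.62%. Whether these transcripts belong to a listed RNA was not tested.

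Fewer coding genes were detected in the copy-high wells. Coding genes with at least 10 counts numbered 319, 852, 279, 965 and 102, against 5061 to 11169. When every well was thinned to 4000 coding counts, the expected number of coding genes with at least 1 count was 988, 1580, 1004, 2037 and 1383, against 2303 to 2599. The means were 1398 ± 437 and 2446 ± 73.3, and the sets did not overlap. At the same depth the number of genes with at least 3 counts went the other way, 397 to 498 against 285 to 344, also without overlap. At equal depth the copy-high wells thus held fewer genes with more counts each. Counts repeated by PCR were not set apart from independent molecules, so this holds for counts only. From 132 to 628 genes made up 50% of their coding counts, against 859 to 1261, and the 10 leading genes held 13.2%, 4.38%, 9.87%, 3.98% and 7.80%, against 2.60% to 5.21%.

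**Figure D3:**
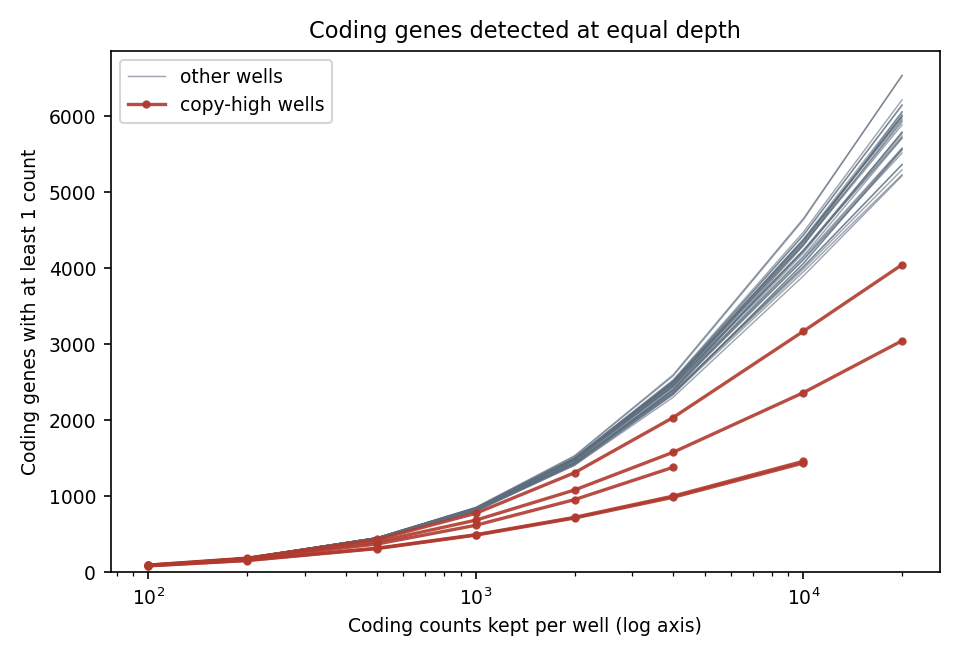
Expected number of coding genes with at least 1 count (vertical axis) after thinning each well to a given number of coding counts (horizontal log axis), one line per well, grey for the 31 other wells and red for the 5 copy-high wells. A line ends where the well has no more coding counts. At 4000 counts the red lines run from 988 to 2037 genes under 2303 to 2599.

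The counts of coding genes also sat on other kinds of transcript. Transcripts annotated as retaining an intron held 14.7%, 21.3%, 19.2%, 21.8% and 18.2% of coding-gene counts, a mean of 19.1% ± 2.85 against 8.58% ± 1.67. Only well 10 of kit #634444, at 14.8%, was above the lowest copy-high well. Transcripts of coding genes without a defined coding sequence held 10.1% to 12.7% against 3.74% to 8.02%. Full coding transcripts held 58.1% to 63.2% against 69.4% to 84.8%, again without overlap, and targets of nonsense-mediated decay held 7.19% to 9.82% against 4.90% to 7.59%. Assignment between transcripts of 1 gene is an estimate from shared reads and is less certain at low depth.

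For single coding genes, the level is the count per 1000000 coding counts of the well (CPM). The 1168 genes tested were those for which the mean of both set means was at least 200 CPM, and a gene was called where the means differed at least 2-fold and every copy-high well lay above the 90th or below the 10th percentile of the other wells. The filter can be passed through the shallow copy-high wells alone, where 1 count is worth up to 206 CPM, and 751 tested genes had the higher mean there and 417 the lower. By the rule 23 genes, or 1.97%, were higher and 141, or 12.1%, were lower. Among them 13 and 85 showed no overlap at all. The 141 could come only from the 417 genes with the lower mean. For lists of genes high in the other wells, 12.1% is thus a low base, and a count above it was not read as enrichment. The numbers of called genes depended on which wells entered. Without well 8, 11, 13 or 15 of kit #634413 the higher genes were 45, 47, 37 and 31, and without well 1 of kit #634444 they were 37, since fewer wells then had to pass, while the lower genes were 151 to 176. With the 3 wells of 5 to 10% copies joined to the copy-high set, 1 gene was higher and 0 were lower.

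Genes of cytoplasmic translation led the lower calls. Of the 85 cytosolic ribosomal protein genes, 65 were tested, 37 were lower and 0 were higher. Of all genes tested 12.1% were lower, and of the 417 that could be called lower 141 were. In sum the ribosomal protein genes took 2.07%, 2.74%, 0.95%, 0.77% and 1.75% of coding counts against 3.41% to 9.58%. RPS6, a small-subunit protein, was at 178, 137, 94.3, 31.6 and 0 CPM against 1307 to 4880. RPL13A was at 101 to 912 against 1331 to 4406. RPLP0, of the ribosomal stalk, overlapped with 0 to 2017 against 1071 to 3817, and RPL3 had levels of 2119 in well 11 and 2062 in well 1 of kit #634444 and was at 0 in wells 8 and 13. Pseudogenes of ribosomal proteins, with which these genes share reads, held 0.0679% against 0.168% of the counts outside the copies and rRNA.

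RPL23A, RPL15, RPL5, SPARC, ITGA6, EIF1, RPL24 and TM9SF3 were among the lower calls with the largest ratios and had 0 counts in all 5 wells. SPARC is a secreted matrix protein, ITGA6 an integrin subunit, EIF1 an initiation factor and TM9SF3 a membrane protein of the Golgi. With the floor set at 3 counts over the 87594 coding counts of the copy-high set, or 34.2 CPM, RPL23A was at least 33.3-fold lower (1140 ± 443 CPM in the other wells), RPL15 at least 31.0-fold, RPL5 at least 30.1-fold and SPARC at least 18.7-fold. The bounds of the other 4 ran from at least 14.8-fold for TM9SF3 to at least 17.2-fold for ITGA6. In all, 20 of the 141 lower genes had no count in any copy-high well.

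Translation factors followed the ribosomal proteins. EEF1A1, which brings tRNAs to the ribosome and had the highest mean count level in the other wells, had 0, 0, 0, 5 and 1 counts, where its mean level of 6600 ± 1858 CPM in the other wells would give 578 in all. EEF1G and CANX, each with 1 count in all, would have had 129 and 120. EEF2, the translocation factor, was at 206 to 1516 CPM against 2226 to 4662, and TPT1 at 0 to 286 against 787 to 3348. PABPC1, the poly(A)-binding protein, overlapped because of well 11, where it was at 2017 against a mean of 2026 in the other wells. Of 37 factors, 25 were tested, 9 were lower and 0 higher, against 12.1% lower and 1.97% higher among all genes tested. Among the 417 tested genes that could be called lower, 141 were. The factors in sum took 0.59%, 0.82%, 1.16%, 0.70% and 1.12% of coding counts against 1.79% to 3.92%.

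Nuclear-encoded partners of the mitochondrial genes were low while the copies were high. The 81 nuclear subunits of the oxidative phosphorylation complexes took 0.07% to 0.27% of coding counts against 0.35% to 0.88%, without overlap, and 44 of them had no count in any copy-high well. Only 2 reached the level to be tested, of which COX7C, a subunit of cytochrome c oxidase, was at 0 in all 5 wells against 109 to 749 CPM. Mitochondrial ribosomal proteins took 0.04% to 0.40% against 0.29% to 0.57%, and factors of mitochondrial transcription and RNA processing 0.06% to 0.45% against 0.11% to 0.28%, both with overlap. The highest value of the last list came from GRSF1 in well 8, at 3744 CPM, while it was at 0 in the other 4 copy-high wells.

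The list of secreted, lysosomal and endoplasmic reticulum proteins was lower as well. Its 47 genes took 0.97%, 1.10%, 1.08%, 0.86% and 0.49% against 1.11% to 3.41%, so the highest copy-high well was just under the lowest other well. Of 22 tested genes 7 were lower and 0 higher, against 12.1% lower among all genes tested. Among the 417 tested genes that could be called lower, 141 were. SERPINE2, a secreted protease inhibitor, was at 89.2, 2461, 283, 1295 and 206 against 1187 to 13313, so 2 wells lay inside the range. HSP90B1, an endoplasmic reticulum chaperone, was at 0 to 267 against 646 to 3110. Glycolytic enzymes took 0.07% to 0.51% against 0.43% to 2.04%, with GAPDH at 31.6 to 1337 against 1053 to 5836 and LDHB at 0 to 206 against 314 to 1028. Heat shock proteins and chaperones took 0.05% to 0.70% against 0.49% to 1.42%, with HSP90AB1 at 0 to 649 against 831 to 2405. Replication-dependent histone mRNAs, which lack a poly(A) tail, took 0% to 0.09% against 0.02% to 0.77%, and 62 of the 68 had no count.

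Glycolytic enzymes, heat shock proteins and chaperones, and the histone mRNAs overlapped between the sets, as did the groups that follow. Nuclear RNA-binding proteins took 2.25%, 2.22%, 2.50%, 1.43% and 1.53% against 1.62% to 2.54%, with 1 of 26 tested genes higher and 5 lower, against 1.97% and 12.1% of all genes tested. Within the list the members differed: SRRM2, a protein of nuclear speckles, was at 0 to 6209 CPM against 697 to 2568, while NPM1, a nucleolar protein, was at 0 to 1415 against 1010 to 4434. Immediate early and stress genes took 0.29% to 0.75% against 0.32% to 0.70%, with 0 of 8 tested genes called. Apoptosis regulators took 0.06% to 0.48% against 0.11% to 0.44%, cytoskeleton genes 0.58% to 1.78% against 0.76% to 1.35%, and mitosis genes 0% to 0.48% against 0.01% to 1.69%. For the latter, well 11 stood at 2632 CPM of CENPF, a kinetochore protein, which was at 0 in the other 4 wells.

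**Figure D4:**
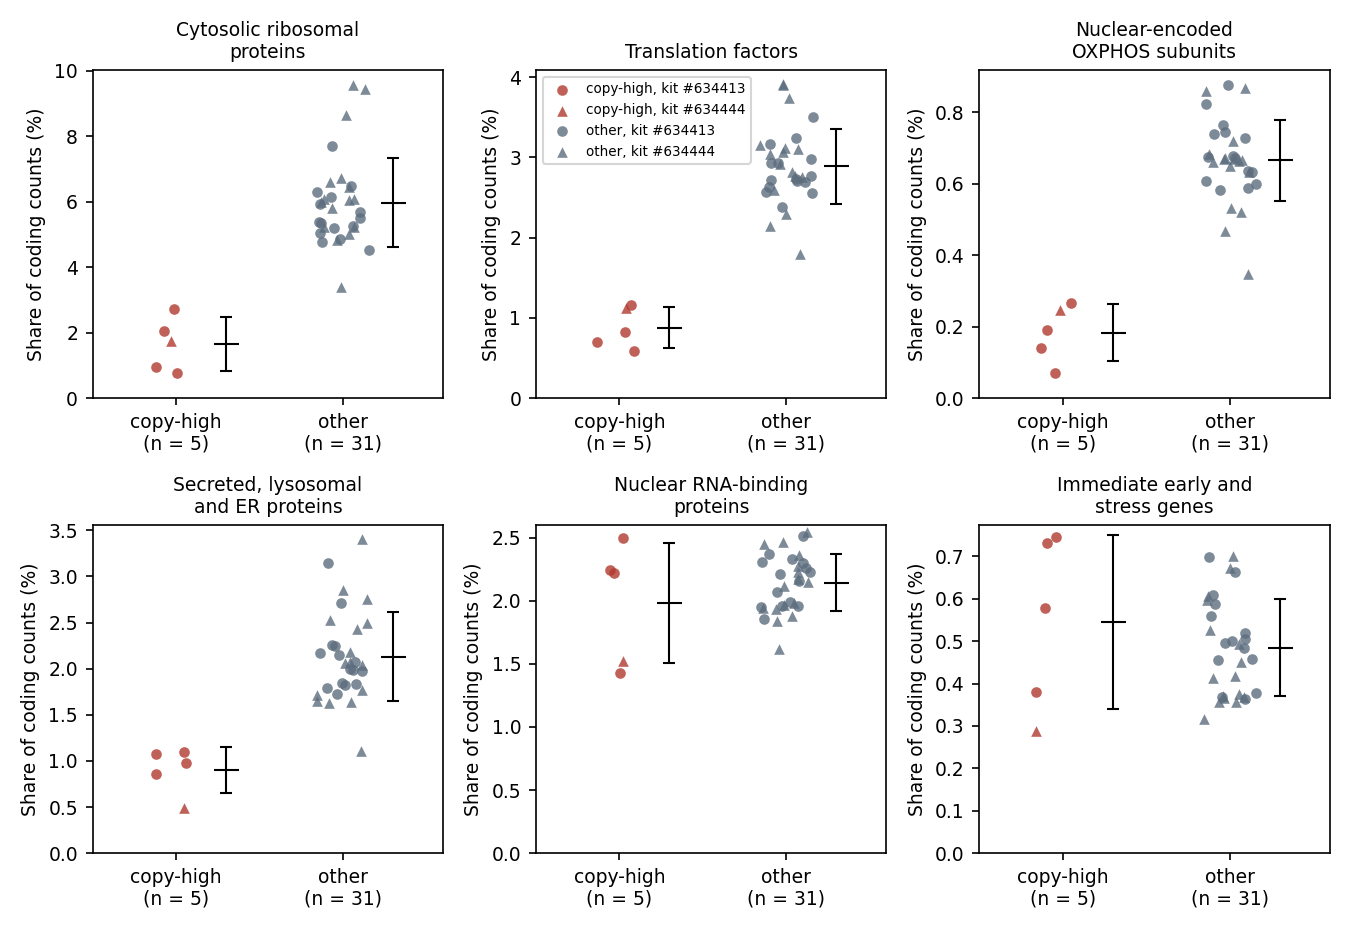
Share of coding counts, in percent, on 6 lists of genes in each A375 well (circles, kit #634413; triangles, kit #634444), with mean ± SD beside each set. The 4 lists of ribosomal proteins, translation factors, OXPHOS subunits and secreted, lysosomal and endoplasmic reticulum (ER) proteins show the 5 copy-high wells below all 31 others, and nuclear RNA-binding proteins and immediate early and stress genes show overlapping sets.

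Among the 23 higher genes the largest ratios belonged to SPTLC3, ADGRF1, COL9A3, ZFHX3, GOLGA8B, SCRIB, RAB4B, FYCO1, RGP1 and CACNG8, which share no list used here. SPTLC3, a subunit of serine palmitoyltransferase, was at 32273, 4204, 12827, 1516 and 23915 CPM against 128 to 706, from 785 counts in all. ZFHX3, a transcription factor, was at 6479, 3724, 3186, 884 and 6900 against 48.1 to 587. COL9A3, a collagen chain, was at 1060 to 6485 against 1.04 to 379, and the adhesion receptor gene ADGRF1 at 137 to 7400 against 0 to 103. GOLGA8B shares most of its sequence with GOLGA8A, and counts may have been split between them. For SCRIB, RAB4B, FYCO1 and CACNG8 1 or more copy-high wells lay within the range of the others.

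Set against rRNA rather than coding counts, these genes were not higher. SPTLC3 had 18.1 ± 11.1 counts per 10000 counts of the ribosomal repeat in the copy-high wells and 19.4 ± 9.35 in the others. For ZFHX3 the values were 6.09 ± 2.29 and 14.02 ± 6.96, for COL9A3 5.43 ± 3.41 and 9.65 ± 7.36, and for ADGRF1 2.67 ± 2.51 and 2.82 ± 2.04. Of the SPTLC3 counts 99.9% lay on 1 transcript, ENST00000399002, in the copy-high wells and 81.8% in the others. Of the ADGRF1 counts 73.4% and 92.8% lay on retained-intron transcripts.

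**Figure D5:**
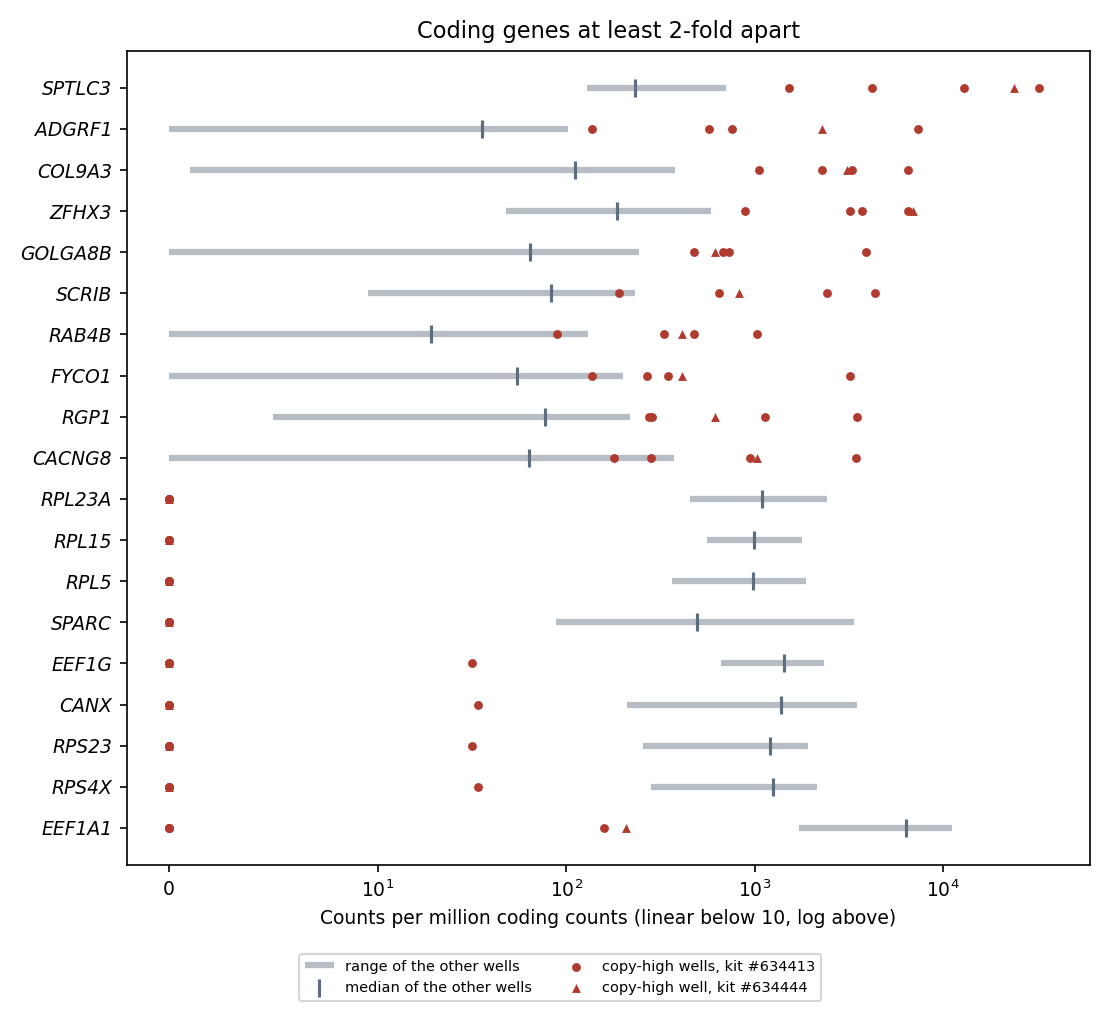
Level of 19 coding genes, in CPM of coding counts (horizontal axis, linear below 10 and logarithmic above), in each copy-high well (red circles, kit #634413; red triangles, kit #634444), with the range (grey bar) and median (tick) of the 31 other wells. The upper 10 genes had the largest ratios among higher calls. The next 4 had the largest bounds among lower calls and are at 0 in all 5 wells, and the last 5 are the lower genes with the largest ratios among those with a count.

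The coding genes with the most counts in the copy-high wells differed from well to well. After SPTLC3 they were PLEC, ANKRD11, ARGLU1, ZFHX3, LUC7L3, MUC5B, PYGB, COL9A3 and GOLGA8A, in the order of their mean count level, which is not corrected for length. PLEC, a cytoskeletal linker, was at 32292, 615, 18109, 6347 and 5979 CPM against 402 to 6329, and 95.4% of its counts lay on 1 transcript against 21.9% in the other wells. ANKRD11, a chromatin regulator, was at 12303, 34.2, 11413, 4800 and 3711 against 573 to 1810, and so was below all other wells in well 11 and above all of them in the other 4. LUC7L3, a splicing factor, was called higher at 947 to 8826 against 224 to 1545, and 83.8% of its counts lay on a transcript annotated for nonsense-mediated decay against 9.38%. ARGLU1, MUC5B, PYGB and GOLGA8A each overlapped with the other wells.

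Few transcripts were common to all copy-high wells. Of the 1168 tested genes, 164 had a count in all 5 wells, 235 in 4, 318 in 3, 291 in 2, 140 in 1 and 20 in none, while 916 had a count in all 31 other wells. Only 14 coding genes had at least 10 counts in each of the 5, against 1484 in each of the 31. Among the 14 were PLEC, ARGLU1, MYH9, HNRNPU, FASN and RPS2 beside 6 genes called higher (SPTLC3, ZFHX3, LUC7L3, COL9A3, TNRC18 and ACIN1). RPS2, of the small ribosomal subunit, was at a mean of 2020 CPM against 1269.

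Markers of the line were thinner and those of the other line near 0. The 16 A375 markers took 0.46%, 0.47%, 0.30%, 0.71% and 0.29% of coding counts against 0.64% to 2.82%, and 5 of the 16 were without a count. Of 9 tested markers 3 were lower, against 12.1% of all genes tested and 141 of the 417 that could be called lower. CD44, an adhesion receptor, was at 0 to 206 CPM against 340 to 1547, and CSPG4, a melanoma proteoglycan, at 0 to 2747 against 166 to 3232. The T cell markers took at most 0.0308% of coding counts in any copy-high well and at most 0.00764% in any other well. CD3D and CD3E were at 0 in all 36 kept wells, and PTPRC was at 221 CPM in well 15 and at 0 in the other 4 copy-high wells.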

How the data were processed

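Single A375 and Jurkat cells were prepared with 2 total RNA kits, and rRNA cDNA was depleted with probes. The authors trimmed the paired-end reads and quantified them with kallisto 0.43.1, in the stranded mode, on Ensembl release 91 transcripts with spike-ins, and STAR 2.5.3 and hg38 are also named in the submitters' processing notes. Per the file headers, each deposited table gives the estimated count and the TPM of 200471 targets per well. The deposited TPM divides by transcript length, so it lowers long targets such as the ribosomal repeat.

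Targets were matched by identifier to GENCODE v44, which named 195850 of 200206 Ensembl targets, and 4356 stayed without a gene. Estimated counts were summed per class and gene without rounding, except in the thinning, which used the rarefaction formula on rounded counts. Wells were grouped by the measured copy share, so the members, and the lists of genes, were chosen with earlier results of these data known. Named were copies with at least 1% of the copy counts, the 10 coding genes of the highest mean level in the copy-high wells, the 10 largest ratios among calls in each direction, and the leading members of each list. Some items this rule names are not reported here. The 5 lower genes with a count and the noncoding genes were added after their values were seen. Levels are counts per 1000000 coding counts, and the fold rule was checked on made-up counts with known answers. No pair of the 36 kept wells had identical values. Depth was 80958 to 278553 counts in the copy-high wells, where 1 coding count can be worth 206 CPM, so single genes are imprecise there. A list of humanin-like genes matched no target by GENCODE v44 name and gave no value. Such genes among the 4356 targets without a name would not have been found. Alternatives were the limit, the count minimum, the median, 1 kit, TPM, other denominators, detection and level thresholds, and each copy-high well left out. No test was run over wells. Python 3.11.15, numpy 2.4.6, pandas 2.3.3 and scipy 1.17.1 were used.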

Additional observations from a re-analysis of the deposited data

Results flagged for a closer look

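Of 62 results checked, 5 had 1 copy-high well far from the other 4, by Dixon's rule at the 95% level. That is 8.06%, where chance flags about 1 group in 20. Transcripts without a gene in GENCODE v44 took 10.6% of the counts outside the copies in well 1 of kit #634444 and 5.09% to 6.27% in the other 4, and pseudogenes other than the mitochondrial copies took 3.28% of its counts outside the copies and rRNA against 1.46% to 1.84%. This well was the only one of its kit and had the lowest total.

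The other 3 concern the makeup of the copies. MTND4P12 held 16.3% of the copy counts in well 8 of kit #634413 against 13.8% to 14.5%, MTCYBP18 held 2.07% in well 15 against 1.70% to 1.76%, and MTND4P35 held 2.004% in well 13 against 0.624% to 1.001%.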

How the results depend on the processing

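Values here are copy-high minus other wells, in percentage points for shares. The rRNA difference of 59.6 was 40.8 at a copy limit of 5%, which moved 3 wells into the set, 40.1 in percent of all counts and 1.499 on TPM. The coding difference of -60.4 was -42.5 at the 5% limit, -33.7 on TPM, -39.3 outside the copies and rRNA and -28.7 when transcripts without a gene were left out as well. The lncRNA difference of -2.50 became 5.64 and 9.12 on those last denominators, which were chosen after seeing the data. The retained-intron difference of 10.5 was 7.17 at the 5% limit. The difference in thinned coding genes, -1048 with at least 1 count, was 119 with at least 3 counts. Leaving out each copy-high well in turn gave 56.9 to 63.9 for rRNA, -63.2 to -59.0 for coding, -3.91 to -1.70 for lncRNA, -1208 to -945 for thinned genes and 9.80 to 11.6 for retained introns.

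Calls of coding genes depended most on the setting. The 23 higher genes were 1 at the 5% limit, 149 with the higher count minimum (2 copy-high wells), 35 in kit #634413, 707 in kit #634444 (1 copy-high well), 7 at a level of at least 1000 CPM and 31 to 47 with a copy-high well left out. The 141 lower genes were 0 at the 5% limit, 227 at the higher minimum, 0 with no minimum, 252 in kit #634444, 770 at a level of at least 50 CPM, 2065 without a filter, 9 at a level of at least 1000 and 151 to 176 with a well left out. With fewer copy-high wells fewer have to pass, and with no minimum 6 wells of few counts join the other set. The 4 lists whose sets did not overlap kept their direction in all 15 alternatives each, and over the 16 coding lists the sign changed in 32 of 240 values, in lists with small differences. No paired analysis was possible because replicate numbers follow accession order and no test was run. Depth limits single genes in the copy-high wells, where 1 coding count can be worth 206 CPM. The 20 tested genes with no count there were all called lower.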
